A study of Danio rerio with 3 samples.

Results

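The 10 transcription factors described here are *crx* (ENSDARG00000011989), *otx5* (ENSDARG00000043483), *otx2b* (ENSDARG00000011235), *prdm1a* (ENSDARG00000002445), *nr2e3* (ENSDARG00000045904), *nrl* (ENSDARG00000100466), *six7* (ENSDARG00000070107), *thrb* (ENSDARG00000021163), *tbx2b* (ENSDARG00000006120) and *foxq2* (ENSDARG00000071394), a set named for the choice of photoreceptor fate. They were taken by symbol from the 27773 genes of the count matrices, each symbol stood in 1 row, and all 10 were measured in cells sorted from the larval zebrafish retina. Their UMIs (unique molecular identifiers, each standing for 1 captured transcript) summed to between 157 for *nrl* and 16625 for *crx* over the 3 libraries. Each condition was 1 droplet 3′ RNA library. Lws2-ablation larvae carried her4.1:dRFP and gfap:GFP together with lws2:nfsb-mCherry, in which a red opsin promoter drives nitroreductase (nfsb), an enzyme that turns metronidazole into a toxin. Larvae labelled Sws2-ablation carried the same pair of reporters with sws2:nfsb-mCherry, which puts nfsb under a blue opsin promoter, and larvae with no ablation carried the reporters alone. All larvae, those with no ablation included, were held in 10 mM metronidazole for 48 h from 6 days post-fertilisation (dpf), were rinsed at 8 dpf and were killed at 9 dpf, which is given as 3 days after injury (3 dpi). Retinae were digested with papain and sorted by fluorescence for the gfap:GFP label, which outlasts *gfap* transcription in cells derived from glia, so that neurons in these libraries are those that passed a glial gate. The gate also sets the shares of cell types.

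Photoreceptors arise from dividing progenitors. The choices made in this lineage are between a photoreceptor and a bipolar fate, and among the cone types and rods. In mouse, Otx2 is needed for both photoreceptor and bipolar fates and Crx, a related homeodomain factor, activates the genes of phototransduction, while Prdm1 (Blimp1) holds new photoreceptors back from the bipolar fate and Nrl with its target Nr2e3 directs the rod programme. In zebrafish, *otx5* is an Otx family gene best known from the pineal organ, *thrb* (a thyroid hormone receptor) is required for red cones, *six7* for green and blue opsin expression, *tbx2b* for the choice of UV cones over rods, and *foxq2* for blue cones. Müller glia are the resident cells from which the zebrafish retina regenerates neurons.

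The libraries held 10520 cells for Lws2-ablation, 7891 for the library labelled Sws2-ablation and 8325 for no ablation with at least 200 genes, with 75110026, 52574675 and 43011757 UMIs and median depths of 5883.5, 5030 and 4382 UMIs a cell, in that order. EGFP, the sequence of the sorted label, had a UMI in 5352 cells (50.9%) of Lws2-ablation and 5649 cells (67.9%) of no ablation but in only 40 cells (0.507%) of the third library, which goes against its line, so it is named as the library labelled Sws2-ablation throughout. Libraries shared 29 (Lws2-ablation with the library labelled Sws2-ablation), 28 (Lws2-ablation and no ablation) and 17 (the library labelled Sws2-ablation and no ablation) cell barcodes. The transcript of the targeted red opsin, *opn1lw2*, stood at 536 CPM (UMIs of the gene per 1000000 UMIs of the cells named) in Lws2-ablation, 75.4 CPM in the library labelled Sws2-ablation and 103 CPM with no ablation, so that it was not lowest in the library where red cones were the target. The blue opsin transcript *opn1sw2* stood at 11.5, 14.6 and 11.4 CPM in the same order. With 1 library per condition there is no test and no p-value, and every 95% interval (exact Poisson for levels and ratios, exact binomial for shares of cells) covers counting error only.

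Cells of the 3 libraries were clustered together, with the 10 factors and related regulators kept out of the features, and clusters were named from lists of markers that do not hold the factors. Photoreceptor-like cells (466 in Lws2-ablation, 312 in the library labelled Sws2-ablation, 232 with no ablation) were clusters 14 and 17. Cluster 17 was led by *opn1lw2*, *gngt2b*, *arr3a* and *gnat2* and passed for 20 photoreceptor markers, whereas cluster 14 was led by *ly6pge*, *sagb* and *gngt1* and passed for 6. Cluster 17 made up 210 of the 466 photoreceptor-like cells in Lws2-ablation, 96 of 312 in the library labelled Sws2-ablation and 129 of 232 with no ablation, so that a level over the whole class mixes the clusters in unequal parts, and values within each cluster are given beside it. Cluster 22 (139, 103 and 48 cells in the same order of libraries) was named neurogenic precursor-like, from *insm1a*, *neurod4* and *hes6* among others, and also had the blue opsin *opn1sw2* among its leading genes. The second neurogenic precursor-like cluster, cluster 16 (323, 96 and 27 cells), was led by *tmsb*, *stmn2b*, *atoh7* and *gap43*, and *crx* was low in it, at 13, 10.7 and 0 CPM. Clusters 8, 10 and 18 (1537, 937 and 355 cells together) carried genes of S phase or of mitosis beside neurogenic precursor genes, and are called the dividing clusters. Cluster 11 (395, 454 and 108 cells), a second S-phase cluster led by *mcm4* and *cdca7a*, was named S-phase progenitor-like and is not among them. Bipolar-like (1647, 1493 and 836 cells) and Müller glia-like cells (1864, 1728 and 4344 cells) complete the groups.

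Glial transcripts were present in every neuronal group. The summed level of 18 Müller glial markers in photoreceptor-like cells was 4344 CPM in Lws2-ablation, 3897 CPM in the library labelled Sws2-ablation and 16516 CPM with no ablation, with 1 marker at 0 in each, against 55239, 39636 and 58347 CPM in Müller glia-like cells. In cluster 22 the same sum was 1773, 1274 and 2043 CPM, with 2, 3 and 2 markers at 0. The dividing clusters held 2569, 2518 and 5258 CPM of it and bipolar-like cells 1911, 1541 and 3778 CPM. Among these neuronal groups glial RNA was closest between libraries in the precursor cluster and higher with no ablation in dividing, bipolar-like and, most widely, photoreceptor-like cells, and its part in the ratios between libraries was not tested.

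The 3 Otx family genes were spread over the lineage in different ways. Compared across groups, *otx2b* was highest in the dividing clusters and bipolar-like cells, *crx* was highest in photoreceptor-like and bipolar-like cells, and *otx5* ran with *crx*. In bipolar-like cells *otx2b* was nonetheless below *crx* and *otx5* in every library. *crx* reached 628 CPM in photoreceptor-like cells of Lws2-ablation, 710.5 CPM in the library labelled Sws2-ablation and 541 CPM with no ablation. In bipolar-like cells it stood at 554, 474 and 618 CPM in the same order, and in cluster 22 it stood at 337, 255 and 370 CPM. The dividing clusters held 142, 97.0 and 125 CPM and Müller glia-like cells 5.45, 4.04 and 2.60 CPM. *crx* therefore stepped up from dividing cells to precursors to differentiated neurons in each library, while photoreceptor-like and bipolar-like cells changed places at the top of the order, since bipolar-like cells were the higher only with no ablation.

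Because levels summed over cells can rest on a few of them, the share of cells with at least 1 UMI was counted after each cell was thinned to 1000 UMIs. *crx* was then found in 40.0% of photoreceptor-like cells in Lws2-ablation, 47.4% in the library labelled Sws2-ablation and 33.5% with no ablation (74.7%, 80.4% and 63.4% before thinning). In Müller glia-like cells, the background for RNA from other cells, it was found in 0.268%, 0.405% and 0.184% (3.33%, 2.66% and 1.15% before thinning). Median depths before thinning were 5919, 5314 and 3389 UMIs in photoreceptor-like cells and 7260.5, 6482.5 and 4780 UMIs in Müller glia-like cells, so that the deeper cells were the ones with almost no *crx*.

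*otx5* followed the same groups with a different balance. Its level in bipolar-like cells, 472 CPM in Lws2-ablation, 370 CPM in the library labelled Sws2-ablation and 631 CPM with no ablation, was above that in photoreceptor-like cells, 305, 265 and 178 CPM, in every library. Cluster 22 held 309, 307 and 512 CPM, and the dividing clusters 132, 85.2 and 145 CPM. Within the photoreceptor-like cells cluster 14 (366, 299 and 235 CPM) was above the red cone-rich cluster 17 (158, 146 and 116 CPM), again in every library.

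*otx2b*, by contrast, was far lower in photoreceptor-like cells than in dividing cells. The dividing clusters held 175 CPM in Lws2-ablation, 165 CPM in the library labelled Sws2-ablation and 139 CPM with no ablation. Cluster 22 held 93.5, 71.6 and 74.9 CPM, cluster 14 held 20.2, 28.1 and 35.5 CPM, and cluster 17 held 4.74, 4.94 and 10.8 CPM. The fall along these 4 groups was in the same order in all 3 libraries. Bipolar-like cells kept a high level, at 178, 298 and 191 CPM. Within the dividing clusters the level was lowest in the S-phase cluster 10 (58.7, 54.1 and 65.0 CPM), the other S-phase cluster, cluster 11, held 21.5, 24.0 and 22.6 CPM, and the level was higher in cluster 8 (215, 211 and 147 CPM) and in the mitotic cluster 18 (262, 231 and 278 CPM).

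**Figure D1:**
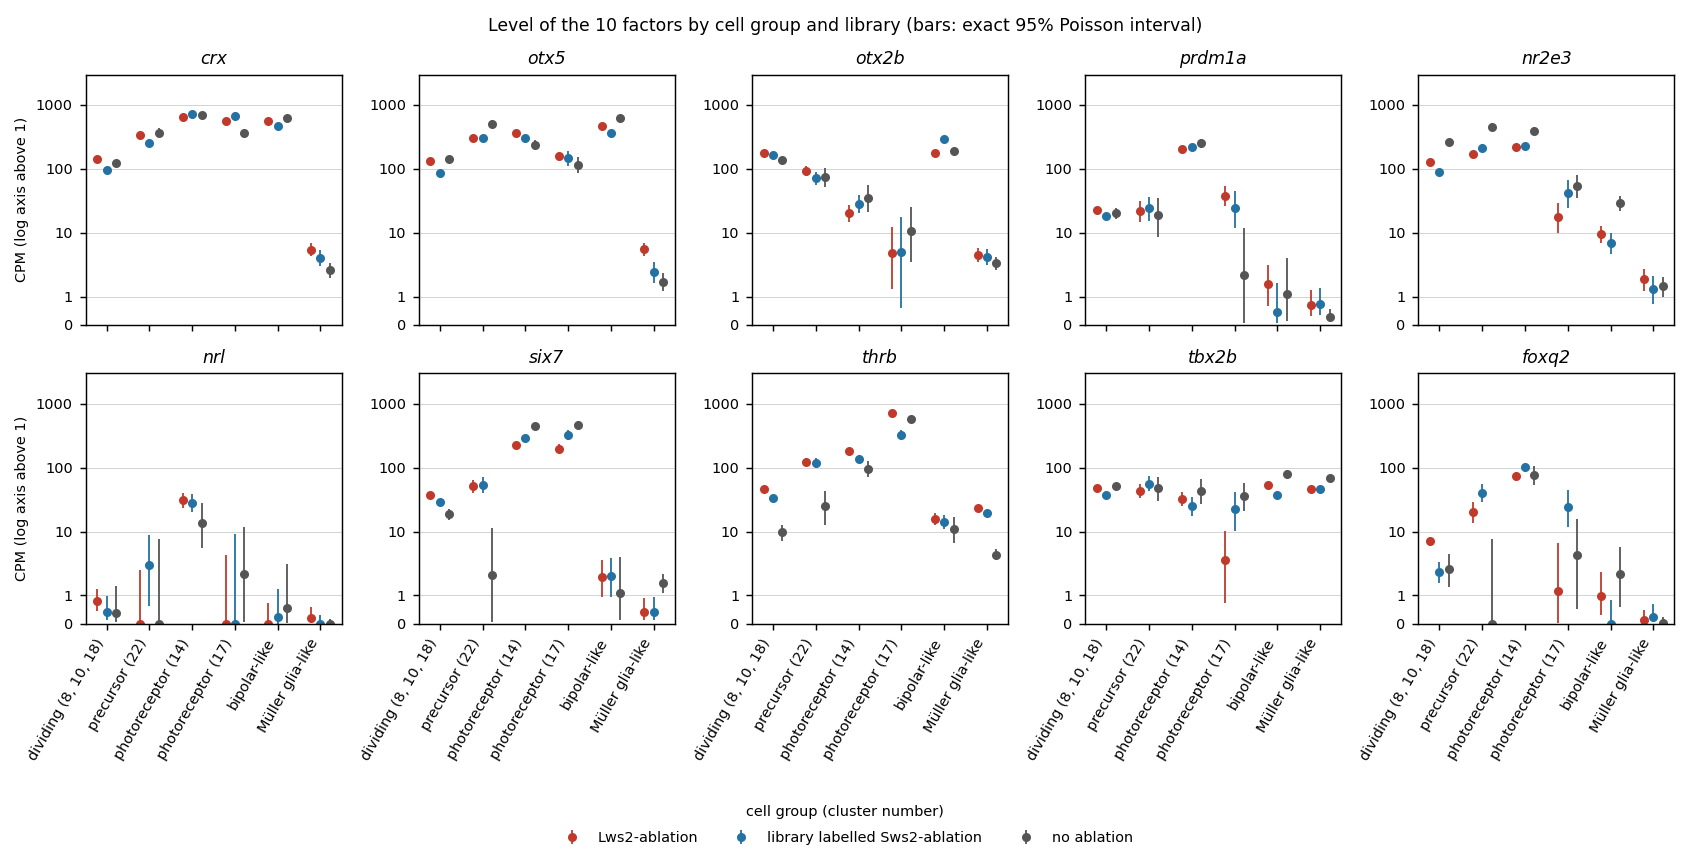
Level of each of the 10 factors (CPM, log scale above 1) in the dividing clusters 8, 10 and 18, precursor cluster 22, photoreceptor-like clusters 14 and 17, bipolar-like and Müller glia-like cells, with 1 point for each library and bars for exact 95% Poisson intervals. *crx* and *otx5* are high from cluster 22 on and in bipolar-like cells, *otx2b* falls from the dividing clusters to cluster 17, *prdm1a* and *nrl* peak in cluster 14, and *tbx2b* is present in every group.

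*prdm1a*, *nr2e3* and *nrl* were higher in cluster 14 than in cluster 17 of every library. *prdm1a* stood at 207 CPM in cluster 14 of Lws2-ablation, 222 CPM in the library labelled Sws2-ablation and 250 CPM with no ablation, and at 37.9 CPM (32 UMIs), 24.7 CPM (10 UMIs) and 2.15 CPM (1 UMI) in cluster 17. The dividing clusters and cluster 22 held between 18 and 24.2 CPM in every library. Bipolar-like cells held 1.58, 0.455 and 1.1 CPM, so that *prdm1a*, known from mouse as a brake on the bipolar fate, was at most at trace levels there. After thinning, 18.7%, 20.2% and 22.2% of cluster 14 cells had a *prdm1a* UMI (65.2%, 62.0% and 56.3% before thinning), against 0 of 1863, 2 of 1727 and 0 of 4344 Müller glia-like cells.

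*nr2e3*, a nuclear receptor that in mouse represses cone genes and activates rod genes, was high in both precursor and photoreceptor-like cells. Cluster 22 held 169 CPM in Lws2-ablation, 213 CPM in the library labelled Sws2-ablation and 458 CPM with no ablation, cluster 14 held 217, 224 and 386 CPM, and the dividing clusters 128, 90.2 and 260 CPM. Cluster 17 was lower, at 17.8 CPM (15 UMIs), 42 CPM (17 UMIs) and 53.8 CPM (25 UMIs). Without the UMIs of its 5 highest cells in each library these levels were 7.11, 9.89 and 10.8 CPM. The library with no ablation had the highest *nr2e3* value of the 3 in each of these 4 groups.

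*nrl*, the leucine zipper factor required for rods, was the scarcest factor. Cluster 14 held 63 UMIs in Lws2-ablation (31.0 CPM), 39 UMIs in the library labelled Sws2-ablation (28.1 CPM) and 7 UMIs with no ablation (13.8 CPM). Cluster 17 held 0, 0 and 1 UMI, cluster 22 held 0, 3 and 0 UMIs and Müller glia-like cells held 3, 0 and 0 UMIs. In cluster 14 the share of cells with an *nrl* UMI was 15%, 11.1% and 4.85% before thinning and 2.78%, 3.37% and 1.01% after it, and thinned shares this low are near the level of single UMIs.

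The subtype factors split the photoreceptor-like clusters. *thrb* was highest in cluster 17, at 712 CPM in Lws2-ablation, 326 CPM in the library labelled Sws2-ablation and 581 CPM with no ablation, and lower in cluster 14, at 181, 139 and 96.6 CPM. *foxq2* had the opposite place, with 73.8, 102 and 76.9 CPM in cluster 14 against 1.18 CPM (1 UMI), 24.7 CPM (10 UMIs) and 4.3 CPM (2 UMIs) in cluster 17. *six7*, a homeodomain factor, did not separate them, with 228, 290 and 448 CPM in cluster 14 and 199, 329 and 464 CPM in cluster 17. Müller glia-like cells held at most 1.59 CPM of *six7* and at most 3 UMIs of *foxq2* in any library.

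*tbx2b* was broadly expressed and was not highest in photoreceptor-like cells. Its highest cluster was the neurogenic precursor-like cluster 16 in Lws2-ablation (70.1 CPM) and the ganglion cell-like cluster 19 in the library labelled Sws2-ablation (97.8 CPM) and with no ablation (111 CPM). Müller glia-like cells held 46.4, 46.9 and 69.5 CPM and bipolar-like cells 53.1, 37.8 and 78.8 CPM, both above the 24.0, 24.6 and 40.1 CPM of photoreceptor-like cells. The intervals of its highest clusters overlap within each library, so their order is not settled. *tbx2b* is also known as a gene of the dorsal retina.

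Photoreceptor-like cells were next typed by their own visual pigment transcripts, with a cell counted as red, green, blue, UV or rod where it had at least 5 pigment UMIs and at least 70% of them belonged to 1 type. Over the 3 libraries this gave 307 red, 88 green, 16 blue, 33 UV and 17 rod cells, with 18 mixed cells and 531 below the minimum. *thrb* was a red cone gene: it stood at 754 CPM in red cells of Lws2-ablation, 507 CPM in the library labelled Sws2-ablation and 814 CPM with no ablation. Green cells of all libraries together held 2 UMIs of *thrb* (5.66 CPM), UV cells 1 UMI (5.30 CPM) and blue and rod cells 0. Among typed cells *foxq2* was highest in blue ones, at 423 CPM (27 UMIs), 463 CPM (3 UMIs) and 662 CPM (13 UMIs) in the 9, 2 and 5 blue cells, against 21 CPM in red, 2.83 CPM in green, 20.1 CPM (2 UMIs) in rod and 0 in UV cells of all libraries together. Most *foxq2* UMIs of photoreceptor-like cells, however, lay in untyped cells: those below the pigment minimum held 255 (78.3 CPM) and mixed cells 9 (106 CPM), against 43 in blue cells. Blue cells were few in every library, and with no more than 2 of them in the library labelled Sws2-ablation no difference between libraries can be read from them.

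*six7* was highest in green cells when libraries were summed (444 CPM), but it was also high in red cells (303 CPM), and the 2 types changed order between libraries. Green cells held 487 CPM in Lws2-ablation, 347 CPM in the library labelled Sws2-ablation and 515 CPM with no ablation, and red cells held 218, 386 and 540 CPM. Blue cells held 211 CPM and UV cells 106 CPM over all libraries, and the 17 rod cells held 0 UMIs (interval 0 to 37.1 CPM). *six7* was thus found in every cone type when libraries were summed, although the 7 UV cells of no ablation held 0 UMIs. It was not detected in the 17 rod cells.

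*tbx2b* was higher in UV than in red cells in both libraries labelled as ablated, although at low counts. UV cells held 71.7 CPM (7 UMIs) in Lws2-ablation, 108 CPM (7 UMIs) in the library labelled Sws2-ablation and 38.4 CPM (1 UMI) with no ablation, against 5.91, 13.8 and 38.0 CPM in red cells. Over all libraries UV cells held 79.5 CPM (interval 44.5 to 131) and blue, green and rod cells 44.5, 22.6 and 10.1 CPM, and the intervals of UV and blue cells overlap. *prdm1a* was higher in blue (222 CPM) and UV cells (212 CPM) than in red (61.2 CPM), green (56.6 CPM) and rod cells (60.4 CPM) of all libraries together, and in each library UV cells (215, 216 and 192 CPM) were above red cells (61.1, 89.6 and 30.4 CPM). *nr2e3* stood at 148 CPM (7 UMIs), 208 CPM (6 UMIs) and 217 CPM (5 UMIs) in rod cells of Lws2-ablation, the library labelled Sws2-ablation and no ablation. Red cells held less in each (68.0, 65.5 and 30.4 CPM), but the rod and red intervals overlap in both libraries labelled as ablated. Over all libraries *nr2e3* stood at 189 CPM in blue and 106 CPM in UV cells. The types lie in different clusters: cluster 14, where both *prdm1a* and *nr2e3* were higher, held 15 of 16 blue, 26 of 33 UV and 13 of 17 rod cells but 56 of 307 red and 26 of 88 green cells, so that pigment type and cluster cannot be told apart for them, and *nr2e3* in rod cells was below its level in cluster 14 as a whole in every library. Both factors were also high in the cells below the pigment minimum, at 217 CPM for *prdm1a* and 258 CPM for *nr2e3*. For *nrl*, 108 of its 110 UMIs in these cells came from cells below the pigment minimum, and the other 2 came from rod cells.

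*crx* and *otx5* were common to all pigment types. *crx* ran between 647 CPM in red and 886 CPM in rod cells over all libraries, although the 6 rod cells of no ablation held only 4 UMIs (173 CPM), and *otx5* between 159 CPM in green and 272 CPM in rod cells. Red cells of Lws2-ablation held 652 CPM of *crx*, those of the library labelled Sws2-ablation 906 CPM and those of no ablation 342 CPM. *otx2b* stayed at or below 15.9 CPM in every type over all libraries, and at or below 34.9 CPM (4 UMIs, green cells of no ablation) in any 1 library.

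**Figure D2:**
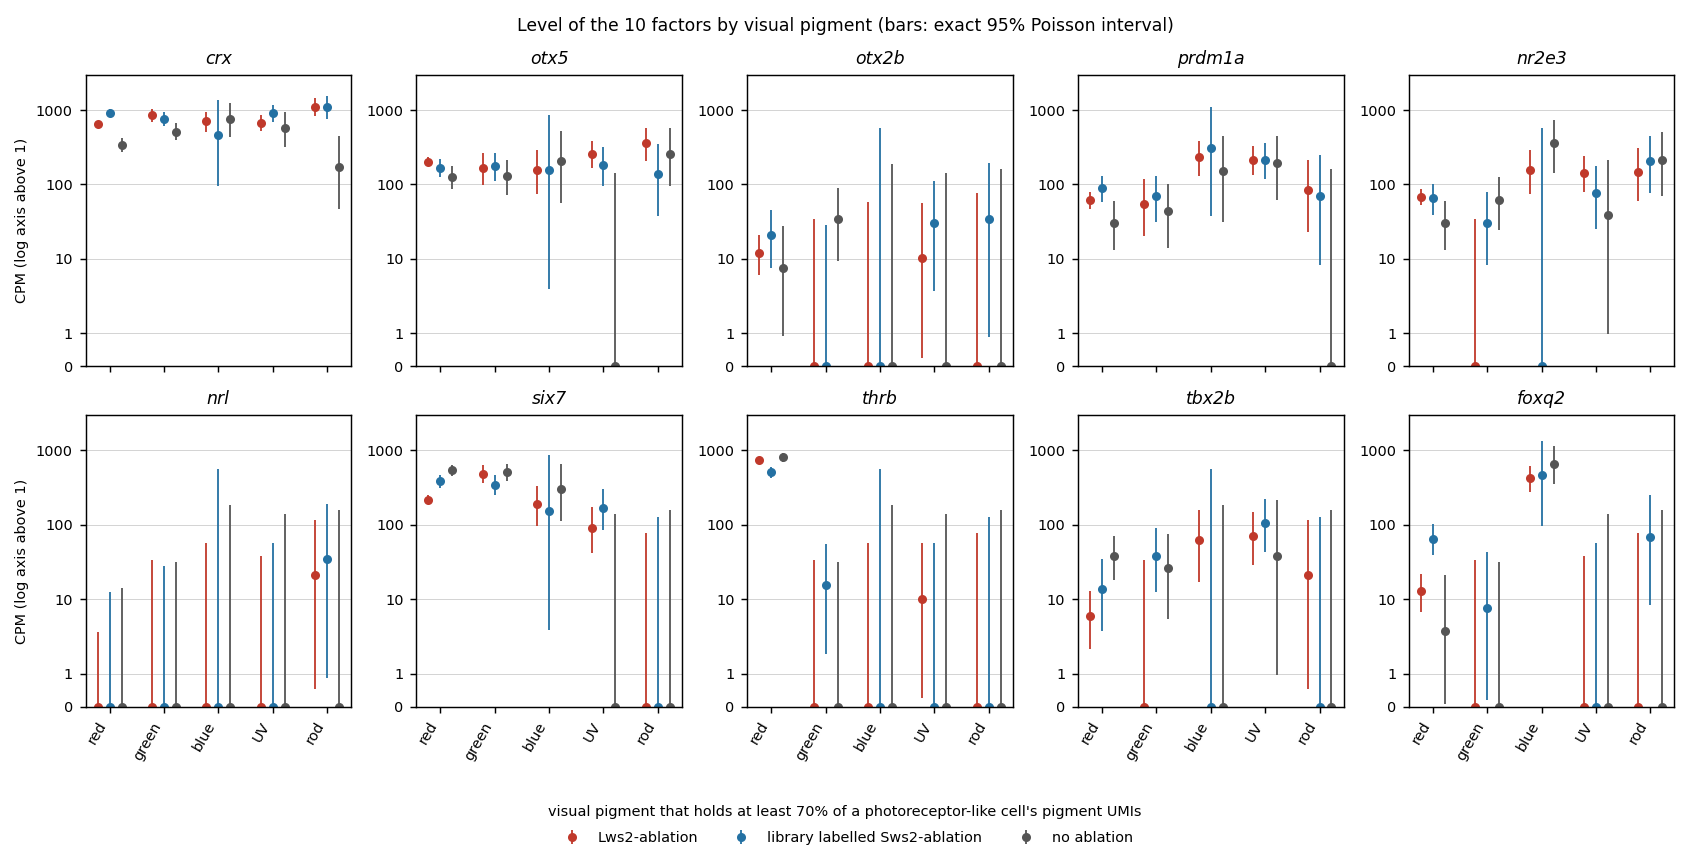
Level of the factors (CPM) in photoreceptor-like cells typed by visual pigment as red, green, blue, UV or rod, with 1 point for each library and bars for exact 95% Poisson intervals. *thrb* stands out in red cells and *foxq2* in blue cells of all 3 libraries, *six7* is present in all cone types, and *crx* and *otx5* are present in all types. The exception is UV cells of no ablation, which held 0 UMIs of *six7* and of *otx5*.

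The factors were next placed along cone maturation without using them. Cells of clusters 14, 17 and 22 were thinned to 1000 UMIs. They were binned by their UMIs of 17 cone phototransduction genes (0, 1 to 2, 3 to 9, and 10 or more, with 406, 231, 182 and 376 cells). Leaving cluster 16 out of these bins was chosen after its leading genes were seen. With cluster 16 kept the 0 bin held 789 cells, and its levels were lower over all libraries for *otx2b* (36.2 CPM against 65.9 without cluster 16), *thrb* (56.5 against 99 CPM), *nr2e3* (110 against 212 CPM), *prdm1a* (41.4 against 78.4 CPM) and *six7* (37.7 against 71.6 CPM). With it kept, *otx2b* was no longer highest in the 0 bin of no ablation, which held 40.7 CPM against 45.2 CPM in the bin of 1 to 2 UMIs. *otx2b* declined over the bins, at 65.9, 29.8, 21 and 14.4 CPM over all libraries. *crx* climbed between the first bins and then stayed level, at 365, 624, 699 and 676 CPM. *otx5* went from 324 and 389 CPM in the low bins to 270 and 172 CPM in the high ones. Without cluster 16, *otx2b* was highest in cells with no cone phototransduction UMI in each library. The order of the other Otx family genes was not the same throughout: in Lws2-ablation and the other library labelled as ablated *otx5* was highest in the bin of 1 to 2 UMIs (388 and 412 CPM) and *crx* in that of 3 to 9 UMIs (705 and 833 CPM), whereas with no ablation *otx5* was highest in the 0 bin (435 CPM) and *crx* in the bin of 1 to 2 UMIs (632 CPM).

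*prdm1a*, *nr2e3* and *foxq2* were factors of the middle bins. *prdm1a* stood at 78.4, 190, 217 and 50.5 CPM, *nr2e3* at 212, 295, 250 and 51.0 CPM, and *foxq2* at 25.3, 97.1, 122 and 8.50 CPM over the same 4 bins. *nr2e3* was lowest in the top bin of each library: the 4 bins held 163, 245, 226 and 61.8 CPM in Lws2-ablation, 217, 271, 160 and 38.0 CPM for the library labelled Sws2-ablation and 371, 548, 446 and 39.3 CPM with no ablation. In the 3 lower bins *nr2e3* was higher with no ablation than in either of the other libraries, and in the top bin it lay between them.

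*thrb* was highest in the top bin of each library, and *six7* was higher in both upper bins than in the 0 bin. *thrb* stood at 99, 109, 174 and 566 CPM over the 4 bins, and its top bin held 609 CPM in Lws2-ablation, 402 CPM in the library labelled Sws2-ablation and 622 CPM with no ablation. In the bin with no phototransduction UMI it already stood at 120 CPM in Lws2-ablation and 99.5 CPM for the library labelled Sws2-ablation, against 24.3 CPM with no ablation. *six7* stood at 71.6, 239, 325 and 360 CPM over all libraries, but it went up into the top bin only with no ablation (355 CPM in the bin of 3 to 9 UMIs and 598 CPM in the top bin). In Lws2-ablation those bins held 243 and 240 CPM, and in the library labelled Sws2-ablation 434 and 388 CPM. *nrl* was found in the low bins (18.2 and 23.8 CPM) rather than the high ones (1.83 and 0.532 CPM), and *tbx2b* was lowest in the top bin (44.5, 35.7, 39.3 and 10.1 CPM). The bins were not split by cone type, so that stage and cone type cannot be told apart in them. They count cone genes, so rods can fall in the low bins at any stage. The place of *nrl*, a rod factor, therefore gives no stage.

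**Figure D3:**
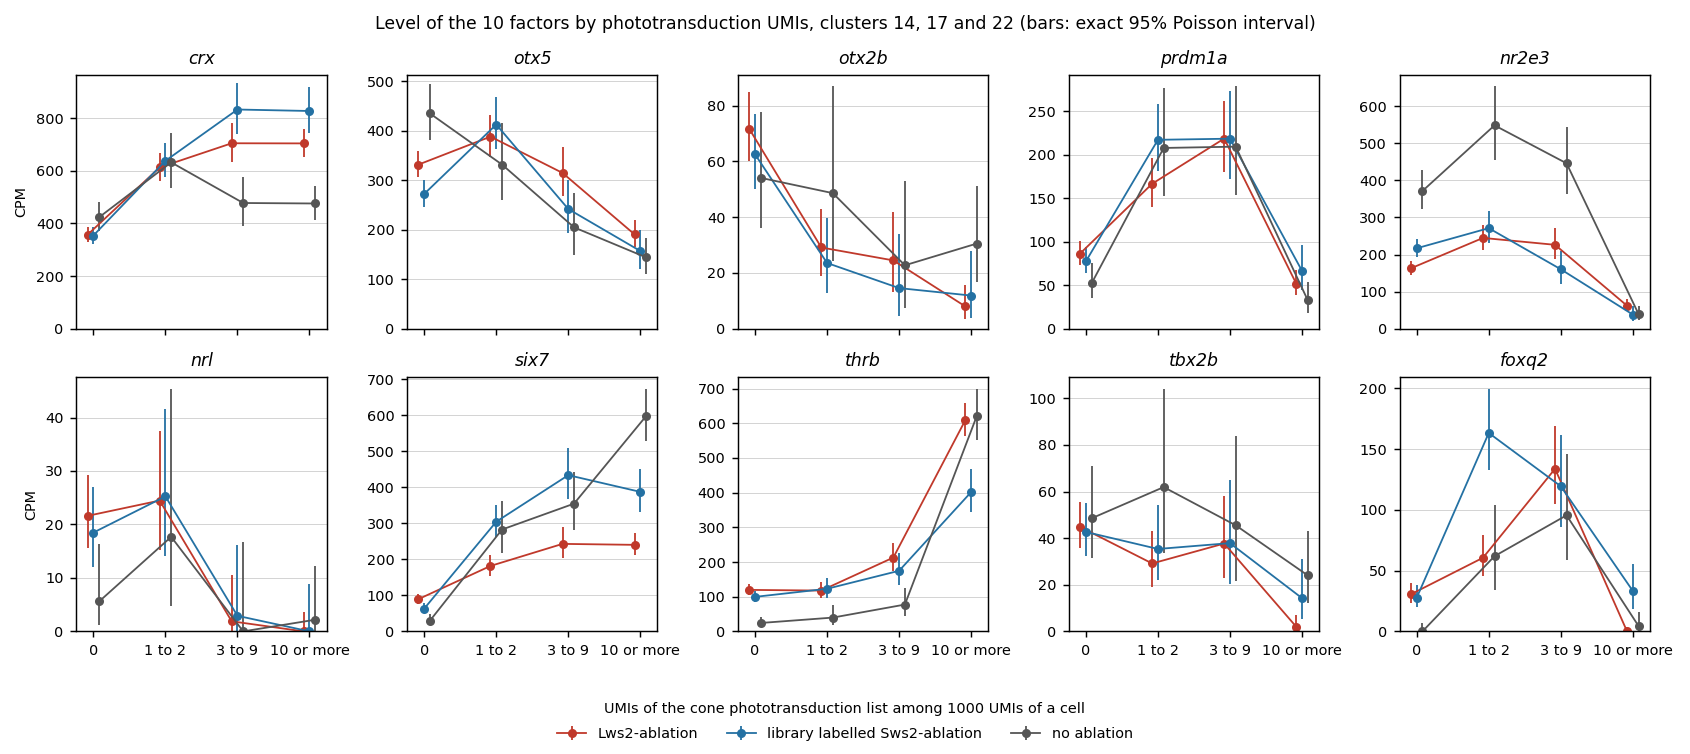
Level of the factors (CPM) in cells of clusters 14, 17 and 22 binned by UMIs of cone phototransduction genes after thinning to 1000 UMIs (0, 1 to 2, 3 to 9, 10 or more), with 1 line for each library and bars for exact 95% Poisson intervals. *otx2b* is highest in the 0 bin, *prdm1a*, *nr2e3* and *foxq2* in the middle bins, and *thrb* in the top bin of all 3 libraries.

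Detection in the same cell differed between pairs of factors. Among photoreceptor-like cells of all libraries, thinned to 1000 UMIs, 0 of 37 cells with a *foxq2* UMI also had a *thrb* UMI (upper limit 9.49%), against 176 of 872 cells (20.2%) without one. *thrb* was found in 10 of 123 cells with *nr2e3* (8.13%) and in 166 of 786 without it (21.1%). *six7* by contrast was found in 56 of 176 cells with *thrb* (31.8%) and in 20.5% of those without. Detection of the red cone factor thus went with that of *six7* and not with that of *foxq2* or *nr2e3*, and these shares pool libraries in which red cells were unequal (197 in Lws2-ablation, 46 in the library labelled Sws2-ablation, 64 with no ablation). They also pool clusters 14 and 17, which differ in *thrb*, *foxq2* and *nr2e3*. Pairing and cluster therefore cannot be told apart for those 3 factors.

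In the dividing clusters several factors were found more often in cells that had another factor than in cells without it. *otx5* was found in 97 of 275 cells with *crx* (35.3%) and in 147 of 2523 without it (5.83%). *six7* was found in 16 of 59 cells with *thrb* (27.1%), against 1.75% of those without, and *nr2e3* in 25 of 53 cells with *prdm1a* (47.2%), against 9.00% of those without. *otx2b* had the opposite pattern with *six7* and *prdm1a*: it was found in 0 of 64 cells with *six7* (upper limit 5.60%) against 437 of 2734 without (16%), and in 2 of 53 cells with *prdm1a* (3.77%) against 15.8% of those without. It was also less frequent in cells with *otx5*, at 23 of 244 (9.43%) against 16.2%. At this depth *otx2b* was thus seldom found in dividing cells with *six7* or *prdm1a*. These shares pool clusters 8, 10 and 18, and *otx2b* was lower in cluster 10 than in the others. Pairing of factors and cluster therefore cannot be told apart in them.

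Between libraries, a ratio was computed where both libraries held at least 20 UMIs of a gene together, and it counts as past 2-fold in either direction. In photoreceptor-like cells, Lws2-ablation over no ablation put 2 of 10 factors past 2-fold (*nrl* higher, *six7* lower), where 21.5% of 8057 genes were past it. The library labelled Sws2-ablation over no ablation put 1 of 10 past it (*nrl* higher), where 25.1% of 6917 genes were. The median log2 ratio of the factors was 0.13 against -0.02 for all genes in Lws2-ablation and 0.17 against -0.28 in the library labelled Sws2-ablation. The set as a whole therefore moved no more often than other genes in photoreceptor-like cells.

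*six7* was the lower factor past 2-fold in photoreceptor-like cells of Lws2-ablation. It stood at 219 CPM (631 UMIs) in Lws2-ablation, 299 CPM (535 UMIs) in the library labelled Sws2-ablation and 456 CPM (443 UMIs) with no ablation, log2 ratios over no ablation of -1.05 (-1.23 to -0.88) and -0.61 (-0.79 to -0.42). The lower level was seen in both photoreceptor-like clusters, with log2 ratios of -0.97 and -0.63 in cluster 14 and -1.22 and -0.50 in cluster 17. Thinned shares of cells had the same order, at 16.8%, 24.4% and 31.2% (42.1%, 47.8% and 56.5% before thinning), against 0.0537%, 0% and 0.161% of Müller glia-like cells. *nrl* was higher in both, with 21.9 CPM (63 UMIs), 21.8 CPM (39 UMIs) and 8.23 CPM (8 UMIs), log2 ratios of 1.41 (0.35 to 2.69) and 1.40 (0.29 to 2.71). Within cluster 14 the ratios of *nrl* were 1.17 (0.04 to 2.54) and 1.03 (-0.15 to 2.43), and 7 of its 8 UMIs with no ablation lay in 5 cells.

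Other factors of photoreceptor-like cells stayed within 2-fold, although *foxq2* lay at the line. Its log2 ratios were 0.32 in Lws2-ablation and 1.00, just under 2-fold, in the library labelled Sws2-ablation. The second was past 2-fold under 6 of 10 alternatives. Within cluster 14 the *foxq2* ratios were -0.06 and 0.40. *thrb* was at 337 CPM in Lws2-ablation, 181 CPM in the library labelled Sws2-ablation and 328 CPM with no ablation, log2 ratios of 0.04 and -0.86 (-1.09 to -0.63). The clusters did not share these values: *thrb* was at 0.90 and 0.52 in cluster 14 and at 0.29 and -0.83 in cluster 17, so that for the library labelled Sws2-ablation the sign turned between them. *otx5* was higher in both (log2 ratios 0.78 and 0.57; 0.64 and 0.35 in cluster 14, 0.44 and 0.33 in cluster 17), as was *crx* (0.22 and 0.39), whose difference lay in cluster 17, where it stood at 559, 682 and 361 CPM, against 657, 719 and 706 CPM in cluster 14. Cluster 17 differed in 3 more factors in Lws2-ablation: *prdm1a* was higher (log2 ratio 4.14, interval 1.56 to 9.49), *tbx2b* lower (-3.36, interval -5.78 to -1.57, 3 UMIs in Lws2-ablation) and *nr2e3* lower (-1.60, interval -2.63 to -0.62). The *prdm1a* ratio rests on 1 UMI with no ablation. Of the 25 *nr2e3* UMIs with no ablation 20 lay in 5 cells. The *nr2e3* ratio changed sign when the libraries were merged without integration (0.99) or clustered without the library labelled Sws2-ablation (1.22). Cells of cluster 17 in Lws2-ablation were also the shallowest, with a median of 1799.5 UMIs against 3573.5 in the library labelled Sws2-ablation and 2657 with no ablation. The sum of the 18 glial markers in cluster 17 was 5103, 8748 and 24106 CPM in the same order. *tbx2b* was also higher in Müller glia-like than in photoreceptor-like cells. The part of glial RNA in the *tbx2b* and *crx* differences of cluster 17 was not tested.

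**Figure D4:**
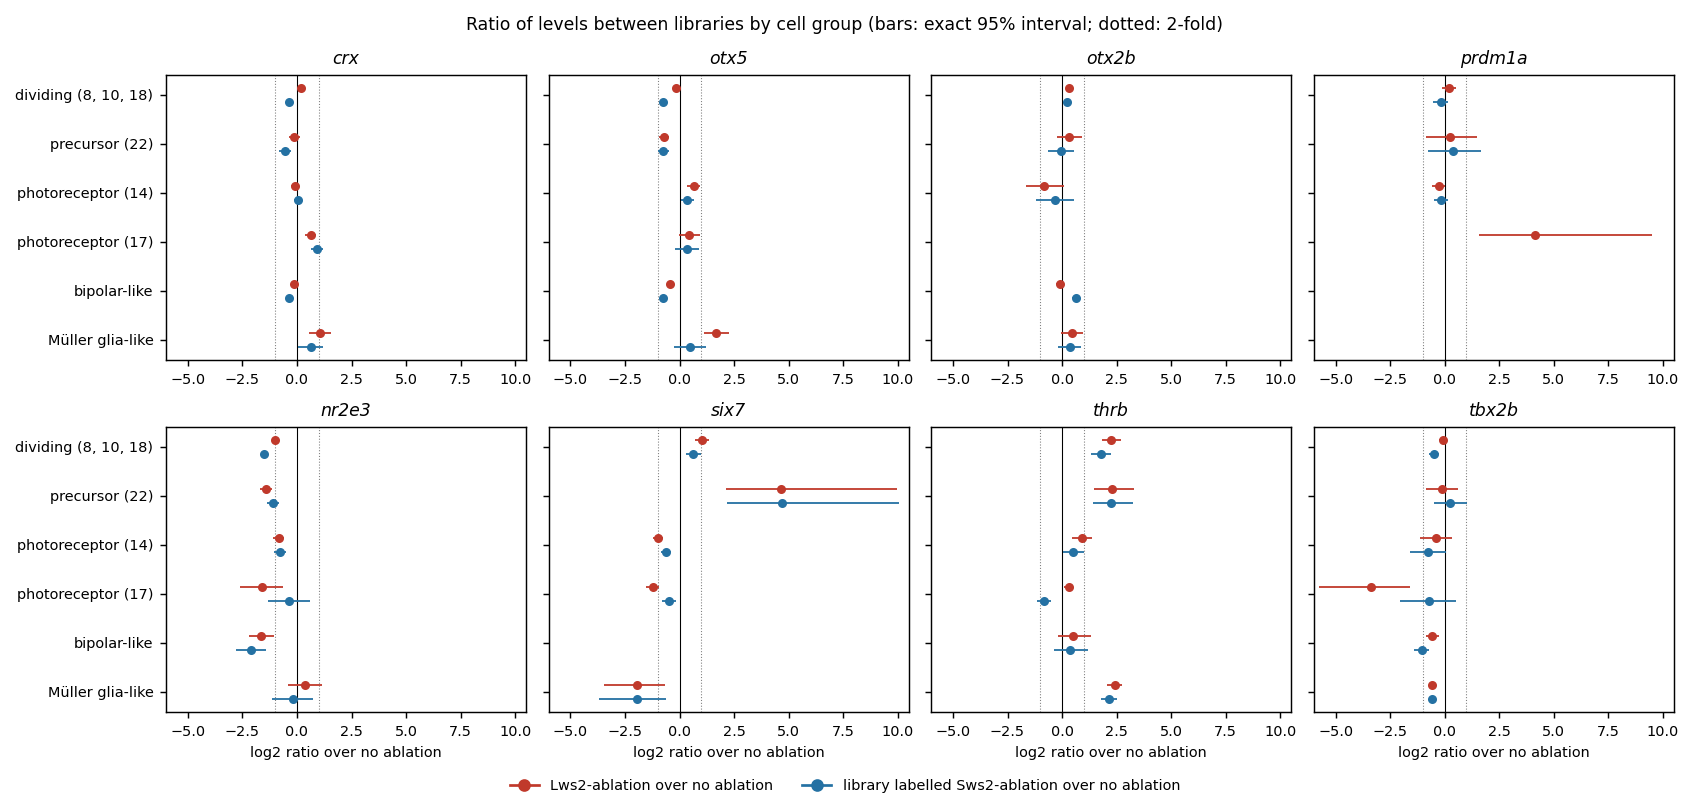
Log2 ratios over no ablation, for Lws2-ablation and then the library labelled Sws2-ablation, for 8 factors in each group of cells, with bars for exact 95% intervals, dotted lines at 2-fold and no point where both libraries together held under 20 UMIs. *nr2e3* lies below 0 in the dividing clusters, cluster 22, cluster 14 and bipolar-like cells for both ratios, *thrb* lies above 2-fold in the dividing clusters, cluster 22 and Müller glia-like cells, and *six7* lies above 0 in dividing and precursor cells and below 0 in photoreceptor-like cells.

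The precursor cells held the largest differences. In all neurogenic precursor-like cells, Lws2-ablation over no ablation put 6 of 9 measured factors past 2-fold (*crx*, *otx5* and *nr2e3* lower; *six7*, *thrb* and *foxq2* higher), where 23.6% of 8461 genes were past it, and the library labelled Sws2-ablation over no ablation put 5 of 9 past it (*otx5* and *nr2e3* lower; the same 3 higher), where 17.9% of 6540 genes were. Different clusters hold most of this class in the libraries, cluster 16 in Lws2-ablation (323 of 462 cells) and cluster 22 in the library labelled Sws2-ablation (103 of 199) and with no ablation (48 of 75). The comparison was therefore repeated in cluster 22 alone, a choice made after the clusters were seen. There 4 of 9 factors were past 2-fold in each, *nr2e3* lower and *six7*, *thrb* and *foxq2* higher, where 15.6% of 5375 genes and 16.2% of 4638 genes were, and *crx* and *otx5* no longer were. Both counts lie above the share of all genes, as a description of 9 genes without a test. However, *six7* and *foxq2* had almost no UMIs with no ablation. They passed the minimum of 20 UMIs only through the libraries labelled as ablated, and so could only be called higher.

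*nr2e3* was the factor of cluster 22 with the most UMIs among those past 2-fold. It held 248 UMIs (169 CPM) in Lws2-ablation, 211 UMIs (213 CPM) in the library labelled Sws2-ablation and 220 UMIs (458 CPM) with no ablation, log2 ratios of -1.43 (-1.70 to -1.17) and -1.10 (-1.38 to -0.83). Thinned shares of cells were 16.7%, 15.8% and 40.4%. Without the UMIs of the 5 cells with most *nr2e3* in each library the levels were 126, 143 and 235 CPM, which leaves both ratios under 2-fold but in the same direction. The 5 cells were a larger part of the 48 cells with no ablation than of the 139 and 103 in the other libraries. *otx5* was also lower in both (309, 307 and 512 CPM, log2 ratios -0.73 and -0.74), within 2-fold.

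The cone subtype factors of cluster 22 came from a handful of cells. *thrb* held 181 UMIs (124 CPM) in Lws2-ablation, 118 UMIs (119 CPM) in the library labelled Sws2-ablation and 12 UMIs (25 CPM) with no ablation, log2 ratios of 2.31 (1.47 to 3.29) and 2.25 (1.39 to 3.25). Of these UMIs 165, 105 and 10 lay in 5 cells of each library, and the share of cells with any *thrb* UMI was 13.7%, 16.5% and 14.6%. Cells with at least 5 *thrb* UMIs numbered 5, 4 and 0. *six7* held 76, 54 and 1 UMI (51.9, 54.5 and 2.08 CPM), log2 ratios of 4.64 (2.12 to 9.96) and 4.71 (2.17 to 10.04), with 39 and 40 of the UMIs in 5 cells of the libraries labelled as ablated. *foxq2* held 30, 40 and 0 UMIs (20.5, 40.3 and 0 CPM), at least 3.28-fold and 6.46-fold higher against a floor of 3 UMIs with no ablation, and 27 of 30 and 40 of 40 UMIs lay in 5 cells. With 48 cells of no ablation in cluster 22, the absence of such cells from that library is not shown.

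The dividing clusters hold more cells and had the same 4 factors past 2-fold in Lws2-ablation, 4 of 9 (*nr2e3* lower; *six7*, *thrb* and *foxq2* higher), where 14.3% of 12561 genes were past it. In the library labelled Sws2-ablation 2 of 9 were (*nr2e3* lower, *thrb* higher), where 15% of 11368 genes were, a count closer to the background. *nr2e3* held 2730 UMIs (128 CPM) in Lws2-ablation, 1089 UMIs (90.2 CPM) in the library labelled Sws2-ablation and 1315 UMIs (260 CPM) with no ablation, log2 ratios of -1.02 (-1.12 to -0.92) and -1.53 (-1.64 to -1.41). It was lower in each of the 3 dividing clusters, with log2 ratios of -0.46 and -1.17 in cluster 8, -1.55 and -1.42 in cluster 10 and -1.56 and -2.65 in cluster 18. Thinned shares of cells were 9.00%, 8.99% and 14.8%, and without the 5 highest cells the levels were 119, 79.1 and 218 CPM, which leaves Lws2-ablation under 2-fold and in the same direction. The 5 cells were a larger part of the 119 cells with an *nr2e3* UMI with no ablation than of the 465 and 205 in the other libraries.

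*thrb* was the higher factor with the most UMIs among dividing cells. It held 974 UMIs (45.8 CPM) in Lws2-ablation, 399 UMIs (33.1 CPM) in the library labelled Sws2-ablation and 49 UMIs (9.69 CPM) with no ablation, log2 ratios of 2.24 (1.82 to 2.68) and 1.77 (1.34 to 2.23). Cells with at least 5 *thrb* UMIs numbered 32, 12 and 1, and without the 5 highest cells the levels were 35.1, 17.7 and 5.34 CPM. Higher *thrb* was not limited to dividing cells. Its median over clusters of at least 50 cells was 24.3, 16.1 and 7.83 CPM in the same order of libraries. Its log2 ratios were 0.52 and 0.38 in bipolar-like cells and 0.04 and -0.86 in photoreceptor-like cells. The part of a library-wide difference in the *thrb* ratios of dividing, cluster 22 and Müller glia-like cells was not tested. *six7* held 796, 347 and 94 UMIs (37.4, 28.7 and 18.6 CPM), log2 ratios of 1.01 (0.70 to 1.33) and 0.63, and 65 of the 94 UMIs with no ablation lay in 5 cells. Without the 5 highest cells its levels were 31.2, 20.4 and 5.74 CPM. In the S-phase cluster 10 its difference was wider, at 46.9, 32.1 and 7.22 CPM, log2 ratios of 2.70 and 2.15. With no ablation cluster 8 held more *six7* than cluster 10, at 29.1 CPM. The *six7* ratio over all dividing clusters mixes these clusters. *foxq2* was higher in Lws2-ablation, at 7.14, 2.32 and 2.57 CPM, log2 ratios of 1.47 (0.66 to 2.42) and -0.15. These *foxq2* UMIs came from few cells, with 70 of 152, 24 of 28 and 13 of 13 in the 5 highest cells of each library, and the ratio of the library labelled Sws2-ablation ran between -2.09 (highest Scrublet scores left out) and 1.16 (resolution 0.4) over the alternatives.

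The Otx family and *prdm1a* moved less among dividing cells. *otx2b* was slightly higher in both (log2 ratios 0.33 and 0.24), and 15.5% of dividing cells in Lws2-ablation, 17% in the library labelled Sws2-ablation and 12.5% with no ablation had a UMI after thinning (54.5%, 48.5% and 44.2% before it). *otx5* was at -0.14 and -0.77, with a larger difference in the mitotic cluster 18 (107, 71.3 and 215 CPM, log2 ratios -1.01 and -1.59). *prdm1a* stood at 23, 18 and 20.4 CPM. The median log2 ratio of the factors in the dividing clusters was 0.18 against -0.00 for all genes in Lws2-ablation and -0.18 against -0.20 in the library labelled Sws2-ablation.

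In bipolar-like cells, Lws2-ablation over no ablation put 1 of 6 measured factors past 2-fold (*nr2e3* lower), where 18.1% of 9699 genes were past it, and the library labelled Sws2-ablation over no ablation put 2 of 6 past it (*nr2e3* and *tbx2b* lower), where 21.5% of 9398 genes were. *nr2e3* held 48 UMIs (9.47 CPM) in Lws2-ablation, 30 UMIs (6.83 CPM) in the library labelled Sws2-ablation and 53 UMIs (29.2 CPM) with no ablation, log2 ratios of -1.63 (-2.22 to -1.04) and -2.10 (-2.79 to -1.42), but 31 of the 53 UMIs lay in 5 cells. *tbx2b* was at log2 ratios of -0.57 and -1.06 (-1.39 to -0.73). *otx5* was lower in bipolar-like cells of both libraries, at log2 ratios of -0.42 and -0.77, while *otx2b* was at -0.10 in Lws2-ablation and at 0.64 for the library labelled Sws2-ablation, where cluster 3, the bipolar-like cluster led by *vsx1*, held 220, 384 and 287 CPM in the order of libraries above. Neither direction of *otx2b* was stable: the first ratio kept its sign under 5 of 12 alternatives, and the second became -0.41 with the libraries merged without integration. Bipolar-like cells were divided unequally among clusters, with 903 of 1647 cells of Lws2-ablation, 834 of 1493 of the library labelled Sws2-ablation and 322 of 836 of no ablation in cluster 3 and 601, 541 and 468 cells in cluster 6.

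In Müller glia-like cells the factors other than *tbx2b* were low, and 4 of 7 measured were past 2-fold in Lws2-ablation over no ablation (*crx*, *otx5* and *thrb* higher, *six7* lower), where 22.9% of 13384 genes were past it. In the library labelled Sws2-ablation over no ablation 2 of 7 were (*thrb* higher, *six7* lower), where 24.7% of 13184 genes were. *otx5* held 5.52, 2.43 and 1.72 CPM, log2 ratios of 1.68 (1.11 to 2.28) and 0.50, and *six7* held 6, 5 and 36 UMIs, log2 ratios of -1.94 and -1.97. The summed level of 37 photoreceptor markers in these cells was 189, 67.5 and 122 CPM in the same order of libraries, and its part in these ratios was not tested.

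*thrb* had the most UMIs of the factors past 2-fold in Müller glia-like cells. It held 335 UMIs (23 CPM) in Lws2-ablation, 239 UMIs (19.3 CPM) in the library labelled Sws2-ablation and 99 UMIs (4.36 CPM) with no ablation, log2 ratios of 2.41 (2.08 to 2.74) and 2.15 (1.80 to 2.50). Thinned shares of cells were 2.36%, 1.68% and 0.414% (15.0%, 11.9% and 1.98% before thinning), and no cell had more than 5 UMIs. For each 100 UMIs of *arr3a* (cone arrestin), Müller glia-like cells held 112, 215 and 22.5 *thrb* UMIs, against 4.35, 2.74 and 3.94 in cluster 17. *crx* was likewise above its ratio to *arr3a* in cluster 17 (26.5, 45.0 and 13.4 against 3.41, 5.73 and 2.45). So was *otx5* (26.8, 27.0 and 8.86 against 0.962, 1.22 and 0.789), but both were also high in bipolar-like cells. *six7* was above it by less, at 2.01, 4.50 and 8.18 against 1.22, 2.76 and 3.16. A higher ratio was therefore not particular to *thrb*, but its size differed between factors. The source of these UMIs was not tested.

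Other genes of the pathway came from 4 lists. Of 11 further photoreceptor regulators in the files 10 were measured in photoreceptor-like cells, and 0 were higher and 3 lower past 2-fold in Lws2-ablation, where 21.5% of 8057 genes were past it, with a median log2 ratio of -0.08 against -0.02 for all genes. The 3 were the homeobox genes *six6b* (67.1, 70.4 and 212 CPM in Lws2-ablation, the library labelled Sws2-ablation and no ablation, log2 ratio -1.66) and *six6a* (26.8, 48.0 and 67.9 CPM, -1.34) and the T-box gene *tbx2a* (64.3, 75.4 and 139 CPM, -1.11). For the library labelled Sws2-ablation, 0 were higher and 1 lower (*six6b*, log2 ratio -1.59), where 25.1% of 6917 genes were past 2-fold. *six6b* stood at 183, 209 and 273 CPM and *tbx2a* at 166, 174 and 197 CPM in Müller glia-like cells, and the glial marker sum of photoreceptor-like cells was also highest with no ablation. The most abundant regulators were within 2-fold: *neurod1* stood at 777, 819 and 812 CPM, *samd7*, a repressor known from mouse rods, at 193, 197 and 188 CPM and the retinal homeobox gene *rx1* at 130, 112 and 140 CPM.

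In precursor cluster 22, of 7 further regulators measured 3 were higher and 1 lower past 2-fold in Lws2-ablation, where 15.6% of 5375 genes were. In the library labelled Sws2-ablation 2 of 6 were higher and 1 lower, where 16.2% of 4638 genes were. The lower one in both was *neurod1*, lower there like *nr2e3*. It stood at 481 CPM in Lws2-ablation, 360 CPM in the library labelled Sws2-ablation and 1019 CPM with no ablation, log2 ratios of -1.08 and -1.50. The highest log2 ratios were 3.79 and 1.54, of regulators not named here. *prdm1b*, a relative of *prdm1a*, was at 95.6, 72.6 and 45.8 CPM in cluster 22, log2 ratios of 1.06 and 0.67. It was at 44.5, 38.3 and 22 CPM in the dividing clusters, where the log2 ratio of Lws2-ablation was 1.02. There 2 of 10 further regulators were higher and 1 lower past 2-fold in Lws2-ablation (lowest -1.07, highest 1.45), where 14.3% of 12561 genes were. In the library labelled Sws2-ablation 0 of 10 were higher and 3 lower, where 15% of 11368 genes were.

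Cone phototransduction genes, which include known targets of Crx, were mostly lower over the whole photoreceptor-like class where they were past 2-fold. Of 16 measured cone phototransduction genes 1 was higher and 3 lower past 2-fold in photoreceptor-like cells of Lws2-ablation, with a median log2 ratio of -0.54 against -0.02 for all genes, and 0 of 15 were higher and 9 lower in the library labelled Sws2-ablation, with a median of -1.24 against -0.28. Of all genes 21.5% and 25.1% were past 2-fold in the same comparisons. The count of Lws2-ablation was therefore near the share of all genes, and that of the library labelled Sws2-ablation was above it. The higher one was *gngt2b*, a cone transducin subunit, at 6639 CPM in Lws2-ablation, 2264 CPM in the library labelled Sws2-ablation and 2681 CPM with no ablation (log2 ratio 1.31). *rcvrn3* (-1.06 and -1.24), *arr3b* (-2.54 and -2.56) and *cngb3.1* (-1.79 and -2.23) were lower in both, and *arr3a*, *pde6ha*, *gnat2*, *pde6c*, *grk7a* and *grk1b* were lower past 2-fold in the library labelled Sws2-ablation (-1.36, -1.17, -1.85, -1.80, -2.15 and -1.60). Levels of the other most abundant genes were 5619, 3049 and 7826 CPM for *arr3a*, 4338, 2908 and 6549 CPM for *pde6ha* and 2024, 2117 and 3801 CPM for *gngt2a*. Within cluster 17 the genes lower past 2-fold in the library labelled Sws2-ablation differed less. The library labelled Sws2-ablation was then at -0.30 for *arr3a*, -0.10 for *pde6ha*, -0.69 for *gnat2*, -0.69 for *pde6c*, -0.49 for *grk1b* and -0.09 for *rcvrn3*, all within 2-fold, and *arr3b* (-1.63), *cngb3.1* (-1.17) and *grk7a* (-1.05) stayed past it. *gngt2b* went the other way. In cluster 17 it was at 2.15 in Lws2-ablation, wider than over the class. It was at 0.98 there in the library labelled Sws2-ablation, where it was lower over the class. For Lws2-ablation, ratios of the other cone phototransduction genes within cluster 17 are not given here. The summed level of 37 photoreceptor markers was 142004, 82269 and 88026 CPM in cluster 17 and 12748, 7265 and 13805 CPM in cluster 14 in the same order of libraries, and the class holds fewest cells of cluster 17 in the library labelled Sws2-ablation.

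Of 6 rod genes, 2 were lower past 2-fold in Lws2-ablation, where 21.5% of 8057 genes were past it. In the library labelled Sws2-ablation 3 were lower, where 25.1% of 6917 genes were past it. *rho* was lower in both libraries, at 54.2 CPM in Lws2-ablation, 70.9 CPM in the library labelled Sws2-ablation and 469 CPM with no ablation (log2 ratios -3.11 and -2.73). *pde6ga* was also lower in both (-1.36 and -1.76), and *saga*, a rod arrestin gene, was lower in the library labelled Sws2-ablation (-1.26). *sagb* stood at 223, 186 and 171 CPM and *gnat1* at 101, 71.5 and 96.7 CPM. Only 7, 4 and 6 cells were typed as rods in the same order of libraries, so the *rho* levels may rest on few cells. *nrl*, the rod factor, was higher in the photoreceptor-like class of both libraries, although most of its UMIs lay in cells below the pigment minimum.

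Of 8 bipolar regulators 7 were measured in bipolar-like cells, with 1 higher and 1 lower past 2-fold in each comparison. Of all genes, 18.1% of 9699 were past 2-fold in Lws2-ablation and 21.5% of 9398 in the library labelled Sws2-ablation. *irx7* was higher (253, 283 and 122 CPM in Lws2-ablation, the library labelled Sws2-ablation and no ablation, log2 ratios 1.05 and 1.21) and *fezf2* lower (15.0, 3.42 and 124 CPM, log2 ratios -3.05 and -5.18). Within clusters, *irx7* was at 1.06 and 0.91 in cluster 3 and at 1.03 and 1.85 in cluster 6, and *fezf2* at -2.13 and -5.81 in cluster 3 and at -3.28 and -6.32 in cluster 6. *vsx1*, the homeobox gene that marks most bipolar cells, stood at 1001, 811 and 684 CPM, *lhx4* at 445, 426 and 443 CPM and *bhlhe23* at 373, 306 and 484 CPM.

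The genes most like each factor were taken by the correlation of log2(CPM + 10) over 70 points (clusters of at least 50 cells in a library) among 14661 genes. Points of 1 library share its depth and points of 1 cluster share its cell type, so the values are a description. *crx* and *otx5* were each other's nearest gene (r = 0.97), followed by *rs1a* (0.92) and *ndrg1b* (0.91) for *crx* and by *lhx4* (0.94) and *neurod4* (0.93) for *otx5*. *otx2b* ran with the bipolar gene *vsx1* (0.85), with *neurod4* (0.80) and with *gadd45gb.1* (0.79). *prdm1a* and *foxq2* were near each other (0.90), *prdm1a* also with *ly6pge* (0.90) and *zgc:109965* (0.88) and *foxq2* with *si:dkey-21o19.2* (0.90) and *aplnrb* (0.89). The nearest genes of *nrl* were rod or photoreceptor genes, *rom1b* (0.94), *cnga1a* (0.94) and *gnat1* (0.92). Outside cluster 14 *nrl* stood at no more than 3.03 CPM in any of these clusters, so its values rest mainly on cluster 14. That cluster was also the highest for *prdm1a* and *foxq2* in each library.

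*six7* was nearest to *samd7* (0.96), *gngt2a* (0.92) and *zgc:109965* (0.91), and *thrb* to *abca4b* (0.87), *rbp4l* (0.86) and *six7* (0.85). *nr2e3* was nearest to *arl13a* (0.84), the blue opsin gene *opn1sw2* (0.84) and *prdm1b* (0.83). *tbx2b* had the weakest likeness, to its paralogue *tbx2a* (0.78), *hmx1* (0.71) and *six3a* (0.67).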

How the data were processed

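The values deposited by the authors are unnormalised UMI counts of filtered barcodes from Cell Ranger (3.0.2 in the matrix headers, 2.1.1 in the submitters' processing notes, which also name GRCz11). The kits were versions v2 and v3, and which library used which is not given in the sources used here. Cells with at least 200 genes were kept. Counts were log-normalised, integrated (2000 features, 30 dimensions) and clustered (15 components, resolution 0.8, 28 clusters) in Seurat 5.3.0 (R 4.3.3). A cluster was named from at least 3 markers present in 25% of its cells and 2-fold above the other clusters, with 10 CPM added. Counts were summed per library and group of cells in Python 3.11.15 (scipy 1.17.1, numpy 2.4.6, pandas 2.3.3). Scrublet (scanpy 1.11.5) called 0 doublets at its automatic threshold in each library, so doublets were kept and the highest scores were left out as an alternative. TMM factors (edgeR 4.0.16), DESeq2 1.42.0 size factors, 3 other clusterings, 2 resolutions and other filters were the alternatives. Text values cover all 10 factors, the 4 most abundant genes of each list in photoreceptor-like (bipolar genes: bipolar-like) cells, list genes past 2-fold in those cells, and the 3 nearest genes by correlation. The factors and lists were chosen with earlier results of these data known. Ratios were checked on simulated counts. The symbols *prdm1c*, *rxrga* and *pde6hb* were not analysed here, and no sequence or coordinate was used here.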

Additional observations from a re-analysis of the deposited data

Results flagged for a closer look

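In photoreceptor-like, bipolar-like and dividing cells and cluster 22, 3 factors had intervals above 0 for both comparisons in one group of cells and below 0 for both in another, and none of these differences was tested, since each condition was 1 library. Each value is the difference of 2 log2 ratios over no ablation, given for Lws2-ablation and then for the library labelled Sws2-ablation. *otx5* was higher in photoreceptor-like cells and lower in the other groups of its lineage: its ratio in photoreceptor-like cells exceeded that in cluster 22 by 1.51 and 1.31, that in the dividing clusters by 0.92 and 1.34 and that in bipolar-like cells by 1.2 and 1.34. In the dividing clusters of Lws2-ablation, however, the *otx5* ratio was only -0.14. It kept its sign under 10 of 12 alternatives and became 0.07 under the study's cell limits. *crx* was higher in photoreceptor-like and lower in bipolar-like cells, with differences of 0.37 and 0.78. *six7* was lower in photoreceptor-like cells but higher in cluster 22, a difference of 5.70 and 5.32, and higher in the dividing clusters, a difference of 2.06 and 1.24. The cluster 22 value of *six7* rests on 1 UMI with no ablation. Among dividing cells its ratios were higher in cluster 10 than over the other dividing clusters. For *thrb* only the library labelled Sws2-ablation had such a turn (log2 ratios -0.86 in photoreceptor-like cells, 2.25 in cluster 22 and 1.77 in the dividing clusters).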

How the results depend on the processing

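Of 46 log2 ratios past 2-fold, all kept their direction wherever they could be computed, except that of *nr2e3* in cluster 17 (Lws2-ablation over no ablation, -1.60), which became 0.99 with the libraries merged without integration and 1.22 when clustered without the library labelled Sws2-ablation, an alternative chosen after seeing the data, as was the restriction to cells with an EGFP UMI. The cause was not tested. The number of factors past 2-fold moved more easily, since several lie near the line. In photoreceptor-like cells of Lws2-ablation it was 1 in place of 2 with EGFP cells only or without mitochondrial and ribosomal protein genes in the total. In those of the library labelled Sws2-ablation it was 3 in place of 1 with the mean over cells, and 2 without the highest Scrublet scores, at resolution 0.4, merged without integration, with TMM or DESeq2 factors, or without mitochondrial and ribosomal protein genes. In neurogenic precursor-like cells of Lws2-ablation it was 3 in place of 6 with EGFP cells only, at resolution 1.2, merged without integration, with the factors kept among the features or without the library labelled Sws2-ablation, and 0 in place of 5 in that library when merged without integration. In the dividing clusters of Lws2-ablation it was 2 in place of 4 under the study's cell limits, without the highest Scrublet scores or with the mean over cells. In bipolar-like cells it was 2 in place of 1 for Lws2-ablation with EGFP cells only or at resolution 1.2 and 0 with the mean over cells, and 1 in place of 2 for the library labelled Sws2-ablation without the highest Scrublet scores, at resolution 1.2, with the factors kept among the features, with TMM or DESeq2 factors, without mitochondrial and ribosomal protein genes or with the mean over cells. In Müller glia-like cells it was 2 in place of 4 at resolutions 0.4 and 1.2 for Lws2-ablation, and 1 in place of 2 merged without integration for the library labelled Sws2-ablation. The counts of cluster 22 stayed within 1.5 times.

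No neurogenic precursor-like cluster formed at resolution 0.4, and EGFP cells were too few (40) in the library labelled Sws2-ablation for a value. No paired analysis was possible because the groups share only replicate number 1. With 1 library per condition, a difference between libraries cannot be told apart from one between conditions. Low counts limit *nrl*, *foxq2* and the 48 cells of cluster 22 with no ablation.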
